A study of Drosophila melanogaster with 39 samples.

Results

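Sorted spermatocytes from Paf1L mutant males were compared with sorted spermatocytes from Leo1L mutant males of Drosophila melanogaster, with sorted controls as the common baseline. The members are 3 Paf1L columns and 3 Leo1L columns of the spermatocyte table, 6 of the 30 columns in the study, chosen by the genotype that the sample labels give. By its name each column joins an mRNA library and an rRNA-depletion library, and the 6 mutant columns thus hold 12 of the 39 libraries. The Paf1L flies were homozygous for the allele Paf1L FS1, the Leo1L flies were homozygous for the allele Leo1L FS1, and the 3 control columns came from flies labelled w1118. All 3 groups carried Cdc73L tagged with GFP at its own locus, so controls were not free of an engineered tPAF gene, and all cells came from testes of males 1 to 3 days old. The labels put the purity of the sort at 85% or more. Each sorted mutant group rests on 1 homozygous allele, so the allele and anything else carried by that line cannot be told apart. Whole testis was profiled in the same study with transheterozygous mutants (3 libraries for Paf1L, 6 for Leo1L over a cross and the same cross inverted) and 2 control stocks, w1118 iso and w1118. At 8 of 9 stock-dependent genes described below, the sorted controls read nearer to the iso stock than to the w1118 stock. Those 9 genes were picked through a departure of sorted Leo1L from sorted control, so they cannot place the background of the controls. Whole-testis values are given beside the sorted ones below for part of the genes. The labels do not say whether columns came from separate cohorts of flies, so p-values measure the spread between columns.

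The PAF1 complex travels with RNA polymerase II during transcript elongation and has roles in chromatin modification and in the processing of nascent RNA. Paf1, Leo1, Cdc73 and Ctr9 are among its core subunits, and fly testes express additional paralogs of these subunits. Primary spermatocytes are the growing male germ cells that transcribe most of the genes needed for meiosis and sperm assembly, including giant genes of the Y chromosome. Paf1L and Leo1L are paralogs of different subunits of the same complex, so the comparison asks where loss of 1 subunit paralog gives a different transcriptome from loss of another.

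Few genes differed one by one between the mutants. Values are the deposited signal per gene, and differences are on the log2(signal + 1) scale, Paf1L minus Leo1L, which understates changes of genes with low signal. Low values rose in the same step at genes of every length, so they do not look divided by gene length although the authors named the values GeTMM, and levels are compared between columns and not between genes. Of 9495 genes tested, 42 (0.442%) differed between Paf1L and Leo1L spermatocytes at a Benjamini-Hochberg adjusted p under 0.05 in limma, 21 of them higher and 21 lower in Paf1L. Of these, 25 (0.263%) also differed by at least 1 log2 unit, 16 higher and 9 lower in Paf1L, a split that was 14 higher and 12 lower after quantile normalization. At an unadjusted p under 0.05 stood 1284 genes (13.5%). With array weights, which give columns that vary more a smaller weight, 435 genes (4.58%) passed and 95 of them differed by 1 log2 unit or more, with an adjusted p of at most 0.00616 for each of the 42. By comparison, 2408 genes (25.4%) in Paf1L and 1565 genes (16.5%) in Leo1L differed from sorted controls at the same adjusted p. Over all tested genes the median difference was -0.01, and the 95% confidence interval of the difference lay within 1 log2 unit of 0 for 7319 genes (77.1%). For the remaining genes the columns do not show that the mutants were alike. The count of 42 fell to 21 without Paf1L replicate 1, to 21 without Leo1L replicate 2 and to 20 without Leo1L replicate 3, and 20 of the 42 genes passed in each of the 9 fits that left out 1 column. Of these 20, 15 passed in every alternative that tested them. Psf3 and CG34408 did not pass without the filter on low values (adjusted p = 0.0566 each), nor CG45765 and Ranbp16 without the trend term of limma (adjusted p = 0.156 and 0.054), and CG7768 passed in neither.

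Set against sorted controls, the 42 genes fell into 4 kinds. In 14 genes Leo1L alone departed from control, and in 11 genes Paf1L alone did. In 16 genes both mutants had moved the same way and differed in degree, further in Paf1L for 13 and further in Leo1L for 3. A single gene, Psf3, passed against control in both mutants with opposite signs. By columns alone, f, CG43736, CG15882, CG12446 and CG42258 also had Paf1L and Leo1L on opposite sides of all control columns. At each of these genes 1 of the mutants did not pass against control. With a limit of 1 log2 unit against control as well, Leo1L alone departed at 16 genes and Paf1L alone at 12, Paf1L had gone further at 7 and Leo1L at 1, none moved in opposite directions, and 6 departed in neither mutant. A gene counted as unchanged is one that did not pass the test against control, which does not show that it stayed at the control level.

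**Figure D1:**
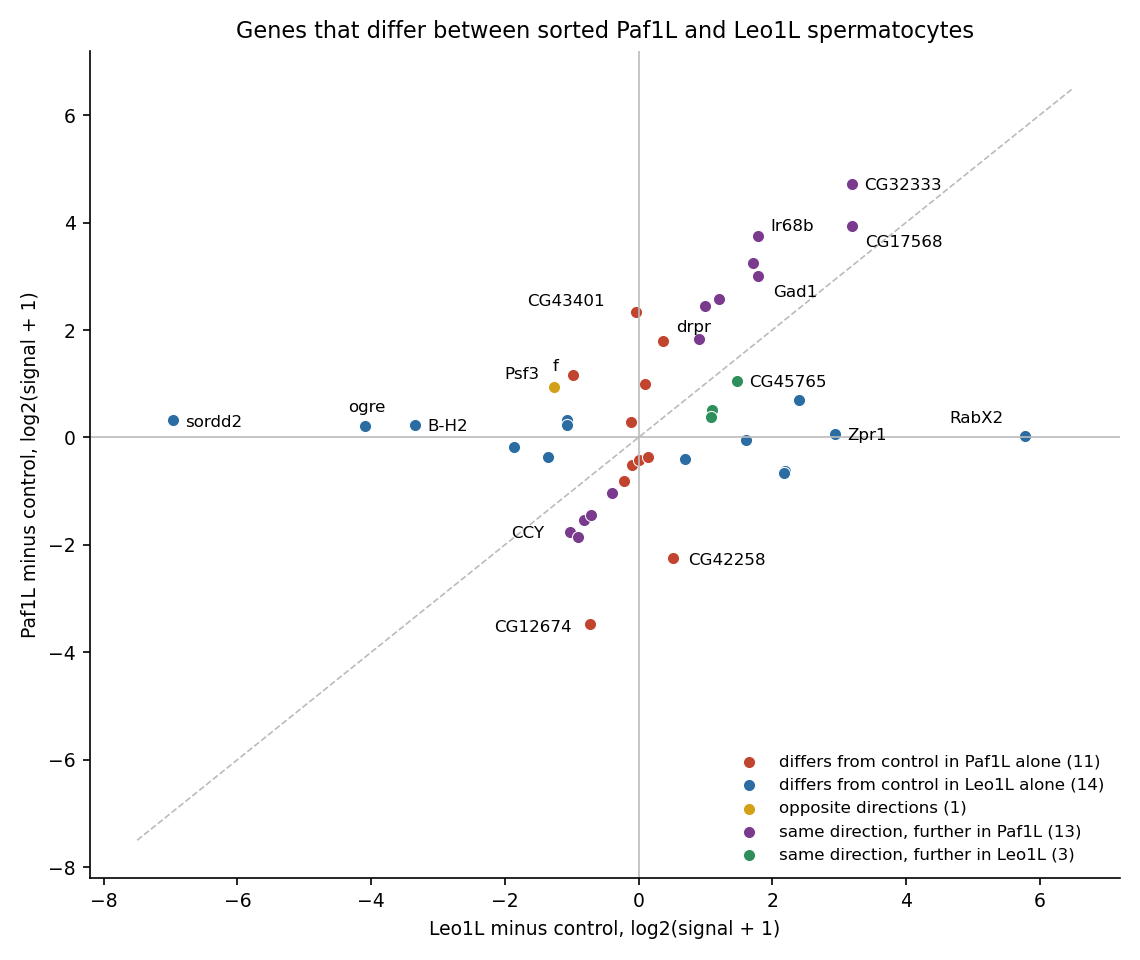
Each point is 1 of the 42 genes with an adjusted p under 0.05 between Paf1L and Leo1L, plotted as Paf1L minus control (vertical axis) against Leo1L minus control (horizontal axis), both in log2(signal + 1) and both using the same 3 control columns. The dashed line marks equal change. Genes that differ from control in Leo1L alone (14, blue) spread along the horizontal axis from sordd2 to RabX2, and genes further changed in Paf1L (13, purple) lie farther from 0 vertically than horizontally.

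The sorted columns held 8969 to 9787 genes with a signal of at least 1. Low values lay near multiples of a step that differed by column, with 75.7% to 85.5% of values up to 6 steps within 0.1 of a whole multiple, which puts the approximate depth at 7.96 to 20.8 M reads per column. The signal of 3 such reads, 0.145 to 0.383, is taken as the smallest that could be told from 0, and it covers counting error only. The median r across genes between columns of the same group was 0.986, and between Paf1L and Leo1L columns it was 0.982. Paf1L replicate 2 stood apart from the other mutant columns on the first 2 principal components, at 47.3 and 34.9 against 14.4 to 24.3 and -15.1 to -1.91 in the other Paf1L columns. Without it, 31 of the 42 genes still passed, and the 11 that did not were nocte, wit, Gad1, btsz, CG17568, eas, rempA, AMPdeam, Mst77F, CG31804 and CG12446, with adjusted p of 0.059 to 0.114.

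The transcripts of the mutated genes were lowest in the columns labelled as their mutants. Paf1L is encoded by CG12674 (chromosome 2L, plus strand, 2079919 to 2081286, FBgn0031388), which had a signal of 1.28, 0.74 and 1.07 in Paf1L columns, against 10.2, 11.8 and 16.2 in Leo1L columns and 27.7, 17 and 20.6 in control columns. All Paf1L columns lay far below all others. The difference between the mutants was -2.74 (SE 0.25, adjusted p = 8.7e-05), and the Leo1L columns were below the control columns without overlap by an estimate of -0.73 that missed the threshold (adjusted p = 0.0641). Leo1L is encoded by CG10887 (chromosome 3R, plus strand, 20114838 to 20117139, FBgn0038773), which read 15.6, 11.1 and 15 in Paf1L columns, against 8.2, 6.18 and 7.76 in Leo1L columns and 23.1, 17 and 20.4 in control columns. The groups did not overlap, but the difference of 0.83 between the mutants (95% interval 0.40 to 1.25) did not pass over all genes (adjusted p = 0.125), and passed with array weights (adjusted p = 0.00864). In whole testis the same gene read 73.4 ± 3.32 in Paf1L (SD, n = 3), against 16.5 ± 1.01 and 17.7 ± 0.428 in the 2 Leo1L crosses (n = 3 each).

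The widest gaps were at genes where Leo1L spermatocytes departed from control and Paf1L spermatocytes did not. The largest was sordd2 (FBgn0052581, chromosome X, 15796908 to 15799162, minus strand), which had a signal of 155, 171 and 163 in Paf1L columns, against 0, 0.135 and 0 in Leo1L columns and 113, 166 and 117 in control columns. The gene was thus at or under the level of 3 reads in all Leo1L columns and at a high level in the other 6. The difference was 7.29 (SE 0.16, adjusted p = 3.7e-12), a value that depends on the pseudocount because Leo1L sits at the bottom of the scale. The neighbouring gene sordd1, 880 bases away, averaged 281 ± 9.24 in Paf1L and 277 ± 10.5 in Leo1L (SD, n = 3 each), a difference of 0.02 (95% interval -0.14 to 0.17), against 240 ± 15.8 in controls. On its other side CG15602, 264 bases away, averaged 22.8 ± 2.65 in Paf1L and 10.4 ± 2.52 in Leo1L, with an adjusted p of 0.0589. How reads shared by similar genes were assigned is not given in the sources used here.

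Whole testis showed the same contrast for sordd2. It averaged 125 ± 4.44 in Paf1L testes, against 0 ± 0 in the first Leo1L cross, 0.098 ± 0.17 in the inverted cross, 48.8 ± 6.81 in the iso stock and 54.8 ± 3.03 in the w1118 stock (SD, n = 3 each). The bulk difference was 6.92 (adjusted p = 2.6e-20). In a bulk tissue fewer cells of a type and less RNA per cell cannot be told apart.

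The gene ogre, which encodes an innexin of gap junctions (FBgn0004646, chromosome X, 6973620 to 6991318), had a signal of 55.6, 50.2 and 55 in Paf1L columns, against 1.26, 1.91 and 2.21 in Leo1L columns and 51.8, 42.6 and 44.5 in control columns. The homeobox gene B-H2 (FBgn0004854, chromosome X, 17314581 to 17324175) had 37.7, 32 and 37.2 in Paf1L columns, against 1.55, 2.52 and 2.08 in Leo1L columns and 28.9, 33 and 28 in control columns. Both genes were at the control range or just above it in Paf1L and far below it in Leo1L. Their differences were 4.30 (adjusted p = 5.1e-09) for ogre and 3.60 (adjusted p = 5.3e-08) for B-H2. In whole testis neither was low in the Leo1L crosses. There ogre averaged 49.5 ± 4.92 in Paf1L, against 49.2 ± 1 and 47.1 ± 4.21 in the Leo1L crosses, and B-H2 averaged 31.2 ± 2.45 in Paf1L, against 28.7 ± 1.63 and 30 ± 4.12 (SD, n = 3 each).

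In the other direction, RabX2, a gene of the Rab small GTPase family (FBgn0030200, chromosome X, 10417429 to 10418219), was above the level of 3 reads in Leo1L columns alone. Its signal was 0.0636, 0 and 0 in Paf1L columns, against 46.2, 55.2 and 61.2 in Leo1L columns, and the gene was listed at 0 in all 3 control columns. The difference was -5.75 (SE 0.26, adjusted p = 1.7e-08), again set by the pseudocount at its lower end. In whole testis RabX2 was not raised in the Leo1L crosses. There it averaged 0.0315 ± 0.0546 and 0 ± 0 in these crosses and 0 ± 0 in Paf1L (SD, n = 3 each). RabX2 lies within the span of CG32683, which averaged 1.13 ± 0.194 in Paf1L and 2.58 ± 0.435 in Leo1L (adjusted p = 0.315). Zpr1, a zinc finger gene (FBgn0030096, chromosome X, 9160124 to 9162090), had 6.42, 5.69 and 2.18 in Paf1L columns, against 39.4, 39.1 and 38 in Leo1L columns and 6.67, 3.45 and 3.1 in control columns. Its neighbours CG9034, 72 bases away, and mei-P26, 1165 bases away, differed by -0.29 and -0.04 (adjusted p = 0.45 and 0.889). The whole-testis difference of Zpr1 was 0.04 (adjusted p = 0.958).

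Sp1, a zinc finger transcription factor of leg development (FBgn0020378, chromosome X, 9729648 to 9756369), had 1.71, 0.663 and 1.26 in Paf1L columns, against 12.1, 14.7 and 15.9 in Leo1L columns and 2.61, 3.36 and 1.34 in control columns. CG15865 (FBgn0015336, chromosome X, 16660898 to 16664455) had 0.254, 0.323 and 0 in Paf1L columns, against 9.12, 5.92 and 7.44 in Leo1L columns and 0.253, 1.28 and 1.29 in control columns. AnxB11, an annexin gene (FBgn0030749, chromosome X, 16416958 to 16422265), had 3.1, 7.35 and 3.53 in Paf1L columns, against 13.8, 16 and 20.1 in Leo1L columns and 1.22, 2.47 and 3.71 in control columns. Leo1L lay above both other groups without overlap at each of these genes. The differences were -2.81, -2.83 and -1.70 (adjusted p = 0.000394, 0.000786 and 0.0414), and that of AnxB11 did not pass in 6 of the 9 left-out fits (adjusted p up to 0.272, without Leo1L replicate 2). In whole testis Sp1 and AnxB11 differed by 0.09 and 0.01 (adjusted p = 0.949 and 0.998), and CG15865 was not tested.

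Chromosome 4, the small heterochromatin-rich autosome, carried 2 genes of this kind, with opposite signs. Asator, which encodes a kinase of the tau tubulin kinase family (FBgn0039908, 469409 to 488994), had 8.32, 11.3 and 10.9 in Paf1L columns, against 34.7, 34.4 and 32.7 in Leo1L columns and 8.15, 12.4 and 11.1 in control columns, a difference of -1.66 (adjusted p = 0.000524). CG32006 (FBgn0052006, 150764 to 153538) had 33.5, 37.2 and 45.3 in Paf1L columns, against 8.09, 13.2 and 12.6 in Leo1L columns and 41.4, 45 and 43.1 in control columns, a difference of 1.71 (adjusted p = 0.000317). At both genes Paf1L overlapped control and Leo1L overlapped neither.

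The remaining 4 of the 14 genes changed less. CG15882 (FBgn0030983) had 15.1, 12.7 and 15.5 in Paf1L columns, against 5.94, 3.68 and 5.09 in Leo1L columns and 11.8, 10.6 and 11.3 in control columns, with a difference of 1.40 (adjusted p = 0.00552). The circadian entrainment gene nocte (FBgn0261710) had 16, 17.8 and 11.5 in Paf1L columns, against 8.17, 4.66 and 4.02 in Leo1L columns and 11.6, 11.1 and 14.8 in control columns, with a difference of 1.31 (adjusted p = 0.0407). CG34334 (FBgn0263829) had 19.6, 17.2 and 20.8 in Paf1L columns, against 9.14, 7.96 and 10.3 in Leo1L columns and 26.6, 21 and 27.8 in control columns. CG43736 (FBgn0263993) had 20.4, 20.2 and 18.8 in Paf1L columns, against 45.7, 45 and 40.1 in Leo1L columns and 24.3, 32.5 and 23.7 in control columns, with a difference of -1.10 (adjusted p = 0.00225). CG34334 differed by 0.99 (adjusted p = 0.0205). Leaving out Leo1L replicate 2 raised the adjusted p to 0.28 for nocte and 0.167 for CG34334, and nocte passed in 2 of the 9 left-out fits.

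All 14 genes lay on X (12) or 4 (2), and many of them also differed between the control stocks of the whole-testis experiment. This check was chosen after the sorted values were seen. Of the 13 that could be tested in bulk, 9 differed between the iso and w1118 stocks at an adjusted p under 0.05, where 949 of 10925 genes (8.69%) did so overall. At all 9, sorted Leo1L lay on the same side of sorted control as the bulk w1118 stock lay of the bulk iso stock. The sorted controls themselves were nearer to the bulk iso stock at 8 of the 9 genes, on the log2(signal + 1) scale and with the tables normalized separately, and nearer to the w1118 stock at Sp1. Sorted Leo1L was nearer to the w1118 stock at 6 of the 9. These 9 genes were picked because sorted Leo1L differed from sorted control and the stocks differed. Spermatocytes and whole testis can also differ in level, so nearness does not place the background of either group. AnxB11, for example, averaged 2.46 in sorted controls and 16.6 in sorted Leo1L, against 23.3 in iso and 38.6 in w1118. RabX2 averaged 0.0344 ± 0.0595 in the iso stock and 20 ± 2.55 in the w1118 stock, and B-H2 averaged 30.9 ± 8.79 in iso and 6.95 ± 1.34 in w1118 (SD, n = 3 each). CG32006 averaged 28.2 ± 2.74 in iso and 2.95 ± 0.682 in w1118, Zpr1 11.3 ± 1.27 in iso and 25.8 ± 2.21 in w1118, and Sp1 0.864 ± 0.228 in iso and 4.86 ± 1.01 in w1118. In the sorted controls the means were 0 for RabX2, 30 for B-H2, 43.2 for CG32006, 4.41 for Zpr1 and 2.44 for Sp1. At sordd2 and ogre, the 2 genes with the largest positive differences, the stocks did not pass the test, with iso minus w1118 differences of -0.17 and -0.06 (adjusted p = 0.344 and 0.789). The part of strain background in the sorted differences was not tested.

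**Figure D2:**
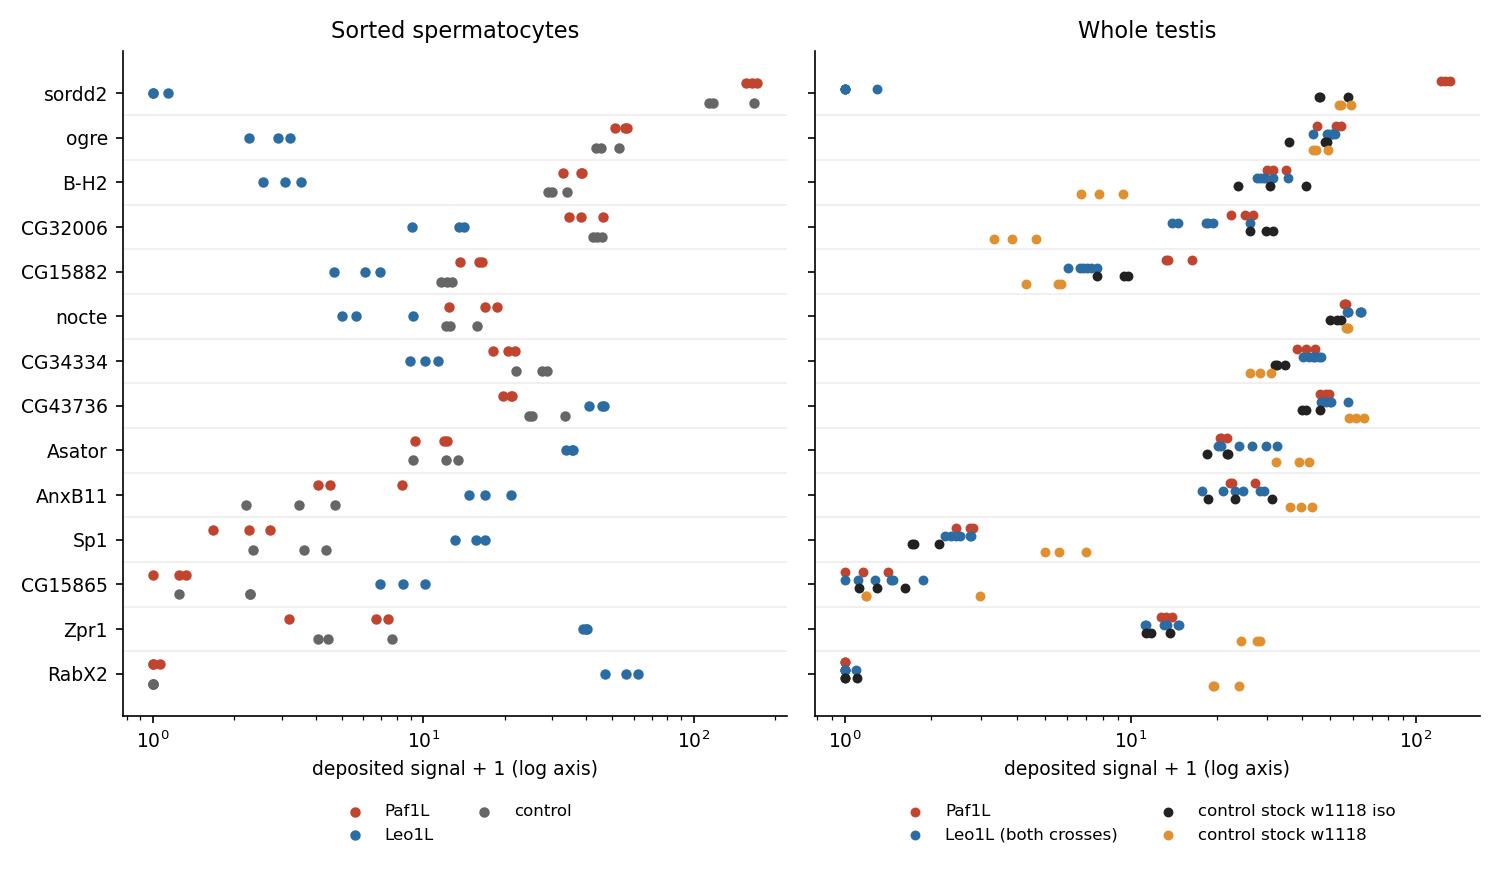
The deposited signal plus 1 on a log axis is shown for the 14 genes that departed from control in Leo1L alone, 1 point per sorted column (left: Paf1L, Leo1L, control) or per whole-testis library (right: Paf1L, Leo1L over both crosses, control stocks w1118 iso and w1118). The tables were normalized separately. In sorted cells the Leo1L points stand apart from Paf1L and control, and in whole testis the w1118 stock stands apart at genes such as RabX2, Zpr1, Sp1, B-H2 and CG32006.

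The 11 genes at which Paf1L alone departed from control lay on 2L (5), X (4) and 3L (2), and 5 of them differed between the mutants by 1 log2 unit or more. CG43401 (FBgn0263320, chromosome 2L, 1428474 to 1429159) had a signal of 8.48, 7.51 and 10.8 in Paf1L columns, against 0.572, 0.837 and 1.33 in Leo1L columns and 0.245, 1.17 and 1.69 in control columns. The difference was 2.38 (SE 0.34, adjusted p = 0.00376). In whole testis it averaged 7.8 ± 1.76 in Paf1L, against 7.53 ± 1.06 and 6.49 ± 1.93 in the Leo1L crosses, 26.5 ± 2.12 in the iso stock and 6.6 ± 9.47 in the w1118 stock (SD, n = 3 each). The w1118 libraries read 0.872, 1.41 and 17.5. Of the 11 genes, 3 differed between the bulk control stocks in limma, where 8.69% of all genes tested in bulk did. They were CG43401 (iso minus w1118 2.65, adjusted p = 0.0037), Mst77F (adjusted p = 0.0255) and AMPdeam (adjusted p = 0.0342). CG42258 (FBgn0259143, chromosome X, 12463528 to 12478431) had 6.46, 1.98 and 3.46 in Paf1L columns, against 25.4, 32.7 and 34.4 in Leo1L columns and 22.3, 19.7 and 21.1 in control columns, a difference of -2.77 (adjusted p = 0.000173). Its whole-testis difference was -0.06 (adjusted p = 0.908).

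The forked gene f, which encodes an actin-bundling protein of bristles (FBgn0262111, chromosome X, 17232942 to 17280964), had 6.48, 5.22 and 7.6 in Paf1L columns, against 0.317, 1.37 and 0.498 in Leo1L columns and 4.29, 1.76 and 1.45 in control columns. All Paf1L columns were above and all Leo1L columns below the control columns. The difference was 2.14 (adjusted p = 0.0164), with Paf1L above control by 1.16 (adjusted p = 0.0291) and Leo1L at -0.98 (adjusted p = 0.0796). The engulfment receptor gene drpr (FBgn0027594, chromosome 3L, 1715595 to 1731107) had 25.3, 50.7 and 22.1 in Paf1L columns, against 11.7, 10.7 and 9.77 in Leo1L columns and 8.39, 6.6 and 9.4 in control columns. Its difference was 1.43 (adjusted p = 0.031), and the Paf1L mean leaned on replicate 2, without which the difference was 1.08 (adjusted p = 0.0492). The highest adjusted p among the alternatives was 0.108 for f, without Leo1L replicate 3, and 0.183 for drpr, with no filter on low values.

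The other 6 of these 11 genes, besides CG12674, differed by less than 1 log2 unit. Mst77F, which encodes a sperm chromatin protein deposited during nuclear condensation (FBgn0086915), had 1400, 1430 and 1540 in Paf1L columns, against 1770, 1950 and 2110 in Leo1L columns and 1980, 2200 and 2060 in control columns. Its difference of -0.41 (SE 0.07, adjusted p = 0.0172) was small and without overlap between the mutants. Higher in Paf1L were rempA, which encodes a subunit of the intraflagellar transport machinery, by 0.90 (adjusted p = 0.0407) and AMPdeam, the AMP deaminase gene, by 0.40 (adjusted p = 0.0249). Lower in Paf1L were CG18132, CG12446 and CG31804, with differences of -0.60, -0.51 and -0.42 (adjusted p = 0.0407, 0.0196 and 0.0407). Each of these 6 missed the threshold in at least 4 of the 9 left-out fits, CG31804 in all 9. The highest adjusted p was 0.275 for CG31804, 0.272 for CG18132 and 0.167 for CG12446, all without Leo1L replicate 2. It was 0.239 for rempA, without Leo1L replicate 3, and 0.194 for AMPdeam and 0.224 for Mst77F, both without the trend term.

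Psf3 was the gene that passed against control in opposite directions. It encodes a subunit of the GINS complex of the replicative helicase (FBgn0030196, chromosome X, 10383353 to 10385861, minus strand). Its signal was 11.2, 20.8 and 10.3 in Paf1L columns, against 1.44, 2.3 and 2.97 in Leo1L columns and 7.66, 5.99 and 6.23 in control columns. The 3 groups did not overlap, with Paf1L highest and Leo1L lowest. Paf1L was above control by 0.93 (adjusted p = 0.0325), Leo1L was below control by -1.26 (adjusted p = 0.00904), and the mutants differed by 2.19 (adjusted p = 0.00232, and 0.0566 with no filter on low values). In whole testis the difference was 0.13 (adjusted p = 0.822), and the iso stock was above the w1118 stock by 0.44 (adjusted p = 0.0455). Opposite directions were not seen there. By estimate both bulk mutants lay above the mean of the control stocks, Paf1L by 0.79 and Leo1L by 0.65. Psf3 is 1 of 11 among the 42 genes that share exonic bases with another gene, in its case CG17841 on the opposite strand. The others with an overlap on the opposite strand are wit, f, btsz, nocte, rempA, CG17568, Ranbp16, Asator and AnxB11. The gene drpr overlaps Oseg4 on the same strand. No strand setting is given in the sources used here, so reads of such pairs cannot be told apart.

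Of the genes raised in both mutants, 8 had gone further in Paf1L. Ir68b, of the ionotropic chemoreceptor family (FBgn0036250, chromosome 3L, 12125487 to 12127394), had a signal of 21, 16.6 and 20.5 in Paf1L columns, against 5.12, 3.61 and 3.93 in Leo1L columns and 0.632, 0.258 and 0.636 in control columns. Paf1L was above control by 3.76 and Leo1L by 1.79, and the mutants differed by 1.97 (SE 0.25, adjusted p = 0.0016). CG32333 (FBgn0052333, chromosome 3L, 1275956 to 1295699) had 42.2, 34.2 and 27.7 in Paf1L columns, against 13.3, 9.61 and 10.9 in Leo1L columns and 0.691, 0 and 0.401 in control columns. Its difference of 1.53 (adjusted p = 0.0164) was also present in whole testis, where it averaged 14.6 ± 2.03 in Paf1L, against 7.15 ± 0.38 and 5.62 ± 0.0932 in the Leo1L crosses, 1.12 ± 0.398 in the iso stock and 1.02 ± 0.376 in the w1118 stock (SD, n = 3 each), a difference of 1.08 (adjusted p = 0.00107). In sorted cells that of CG32333 did not pass in 3 of the left-out fits (adjusted p up to 0.164, without Leo1L replicate 2), at pseudocounts of 0.1 and 0.5 (up to 0.317) or with no filter on low values.

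A close pair of genes of nervous system signalling on 3L, with 2 other tested genes listed between them, was raised in the same order. The gene wit encodes a type II receptor for BMP ligands at the neuromuscular junction (FBgn0024179, 4064152 to 4071717), and Gad1, 2360 bases away, encodes the glutamate decarboxylase that makes GABA (FBgn0004516, 4074077 to 4088744). Gad1 had 22.6, 21.5 and 22.2 in Paf1L columns, against 9.26, 7.41 and 10.6 in Leo1L columns and 1.74, 2.59 and 1.45 in control columns. The gene wit had 8.4, 11.1 and 6.03 in Paf1L columns, against 2.75, 2.51 and 2.05 in Leo1L columns and 0.618, 0.897 and 0.638 in control columns. The 3 groups were ordered without overlap at both genes, with differences of 1.20 for Gad1 (adjusted p = 0.0315) and 1.44 for wit (adjusted p = 0.0455). Both reached an adjusted p of 0.272 without Leo1L replicate 2. Like Psf3, wit shares exonic bases with another gene on the opposite strand, in its case dib.

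CG34408 (FBgn0085437, chromosome X, 10220110 to 10230088) had 51.3, 39.7 and 41.4 in Paf1L columns, against 13.9, 17.5 and 12.8 in Leo1L columns and 2.56, 4.39 and 4.54 in control columns, a difference of 1.52 (adjusted p = 0.00345, and 0.0566 with no filter on low values). The synaptotagmin-like gene btsz (FBgn0266756) had 44.1, 84.8 and 40.2 in Paf1L columns, against 26.2, 17.2 and 18.1 in Leo1L columns and 7.23, 7.46 and 9.98 in control columns, a difference of 1.36 (adjusted p = 0.0366) that was 1.03 without Paf1L replicate 2 (adjusted p = 0.064). LeuRS, which encodes a leucyl-tRNA synthetase (FBgn0284253), had 59.8, 67.5 and 58.9 in Paf1L columns, against 35.2, 31 and 30.4 in Leo1L columns and 15.2, 15.1 and 20.2 in control columns. CG17568 (FBgn0032763) had 65.5, 59.4 and 60.9 in Paf1L columns, against 39.7, 35.1 and 35.8 in Leo1L columns and 3.19, 2.91 and 3.29 in control columns. At all 4 genes Leo1L lay between control and Paf1L. The differences of LeuRS and CG17568 were 0.93 and 0.73 (adjusted p = 0.00704 and 0.0387), with adjusted p up to 0.0713 for LeuRS (without Leo1L replicate 3) and up to 0.272 for btsz and 0.305 for CG17568 (both without Leo1L replicate 2).

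Genes lowered in both mutants and further in Paf1L included 2 of the Y chromosome. The gene kl-3, which encodes an axonemal dynein heavy chain needed for sperm motility (FBgn0267432, chromosome Y, 336381 to 563165), had 28.5, 27.1 and 25.3 in Paf1L columns, against 39.1, 51.2 and 45.8 in Leo1L columns and 74.1, 81.3 and 69.1 in control columns. CCY, a Y gene named for its coiled coils (FBgn0267592, 3649996 to 3666928), had 31, 36.1 and 25.5 in Paf1L columns, against 50.6, 55.7 and 48.6 in Leo1L columns and 104, 124 and 92.8 in control columns. Leo1L lay between the other groups at both. The differences were -0.72 for kl-3 (adjusted p = 0.0191) and -0.73 for CCY (adjusted p = 0.0387), and without Leo1L replicate 2 they reached adjusted p = 0.167 and 0.275. In whole testis kl-3 averaged 90.8 ± 12.7 in Paf1L, against 96.6 ± 9.07 and 89.6 ± 5.58 in the Leo1L crosses (SD, n = 3 each), and the bulk differences of kl-3 and CCY were -0.04 and 0.05 (adjusted p = 0.965 and 0.968).

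The other lowered genes of this kind were net, CG7768 and CG1138. The gene net, a bHLH regulator of wing veins (FBgn0002931), had 15, 20.4 and 14.6 in Paf1L columns, against 31.4, 34.4 and 31.7 in Leo1L columns and 54.1, 80.7 and 54.2 in control columns. CG7768 (FBgn0036415) had 151, 165 and 151 in Paf1L columns, against 230, 300 and 243 in Leo1L columns and 472, 471 and 414 in control columns. CG1138 (FBgn0037456) had 90.1, 108 and 93.7 in Paf1L columns, against 131, 178 and 150 in Leo1L columns and 200, 205 and 196 in control columns. Their differences were -0.94, -0.71 and -0.64 (adjusted p = 0.031, 0.00285 and 0.0177). CG7768 passed in all 9 left-out fits, but not with no filter on low values (adjusted p = 0.0779) or without the trend term (adjusted p = 0.0886). The highest adjusted p was 0.238 for net, without Leo1L replicate 2, and 0.144 for CG1138, without the trend term.

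Leo1L had gone further than Paf1L at 3 raised genes. Ranbp16, which encodes a nuclear transport receptor (FBgn0053180, chromosome X, 15927185 to 15933867), had 538, 600 and 545 in Paf1L columns, against 844, 1000 and 912 in Leo1L columns and 411, 474 and 407 in control columns. The ethanolamine kinase gene eas (FBgn0000536) had 52.2, 56.3 and 59.4 in Paf1L columns, against 83, 83 and 85.2 in Leo1L columns and 37, 42.2 and 36.6 in control columns. CG45765 of the Y chromosome (FBgn0267412) had 1070, 1080 and 1100 in Paf1L columns, against 1380, 1430 and 1520 in Leo1L columns and 490, 534 and 540 in control columns. Paf1L lay between control and Leo1L at all 3. The differences were -0.71, -0.57 and -0.41 (adjusted p = 0.000524, 0.0238 and 0.00475), and that of eas reached adjusted p = 0.165 without Leo1L replicate 2. Without the trend term Ranbp16 had an adjusted p of 0.054 and CG45765 of 0.156. Ranbp16 and eas also differed between the bulk control stocks, by -0.48 and -0.28 for iso minus w1118 (adjusted p = 0.0167 and 0.0359).

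Most of the 12 genes of the Y-linked list had lower estimates in Paf1L than in Leo1L. Against control, 7 were lowered and 1 raised in Paf1L and 5 were lowered and 2 raised in Leo1L, and 11 of the 12 were lower in Paf1L than in Leo1L by estimate. The list leaves out part of the 16 tested Y genes, CG45765 among them. Over all 16, 7 were lowered and 5 raised in Paf1L, and 5 were lowered and 5 raised in Leo1L. The median difference over the 16 was -0.40. Over all tested genes 12.3% were lowered and 13% raised in Paf1L, and 6.95% were lowered and 9.53% raised in Leo1L. The median difference over the list was -0.45, against -0.01 over all tested genes, and kl-3 and CCY were the 2 that passed, while 7 (58.3%) had an unadjusted p under 0.05, where 13.5% of all tested genes did. ORY had 9.99, 14.2 and 12.1 in Paf1L columns, against 17.4, 25.9 and 28.9 in Leo1L columns and 22.6, 23.9 and 22.4 in control columns. Its difference of -0.92 was the largest of the list and missed the threshold (adjusted p = 0.0717), and it passed in 4 of 20 alternatives, the replicate block among them (adjusted p = 0.0397). The summed signal of the 12 genes, in which long genes may weigh more, was 274 to 341 in Paf1L columns, 369 to 462 in Leo1L columns and 549 to 684 in control columns. Pp1-Y1, a Y-linked phosphatase gene, had 12.8, 13.9 and 13.2 in Paf1L columns, against 15.5, 18 and 17 in Leo1L columns, and was listed at 0 in all 3 control columns. In whole testis Pp1-Y1 was present in controls and lower in the mutants. There it averaged 7.34 ± 1.48 in Paf1L and 5.69 ± 0.547 and 6.58 ± 0.473 in the Leo1L crosses. The iso stock averaged 10.2 ± 1.52 and the w1118 stock 11.8 ± 1.55 (SD, n = 3 each).

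By position, 20 of the 42 genes (47.6%) lay on X, which holds 1503 of the tested genes (15.8%). The others lay on 2L (8), 3L (7), Y (3), 3R (2) and 4 (2), with none on 2R among 1935 tested in limma, of which 238 had an unadjusted p under 0.05 (13.5% of all tested genes did). Departures from control also differed by chromosome. In Paf1L, 26.7% of tested X genes and between 23.9% and 27.2% of genes on the 4 large autosomal arms differed from control. In Leo1L the shares were 26% on X and between 14.3% and 14.9% on those arms. On X, departures were nearly all upward, 377 higher and 25 lower in Paf1L, and 365 higher and 26 lower in Leo1L. The median X gene was 0.26 above control in Paf1L and 0.23 above control in Leo1L. By column it was 0.28, 0.30 and 0.20 in Paf1L, against 0.28, 0.23 and 0.22 in Leo1L and 0.01, -0.02 and 0.02 in controls, while the medians of the large autosomal arms lay between -0.04 and 0.04 in every column. Over the X genes the median difference between the mutants was -0.00.

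**Figure D3:**
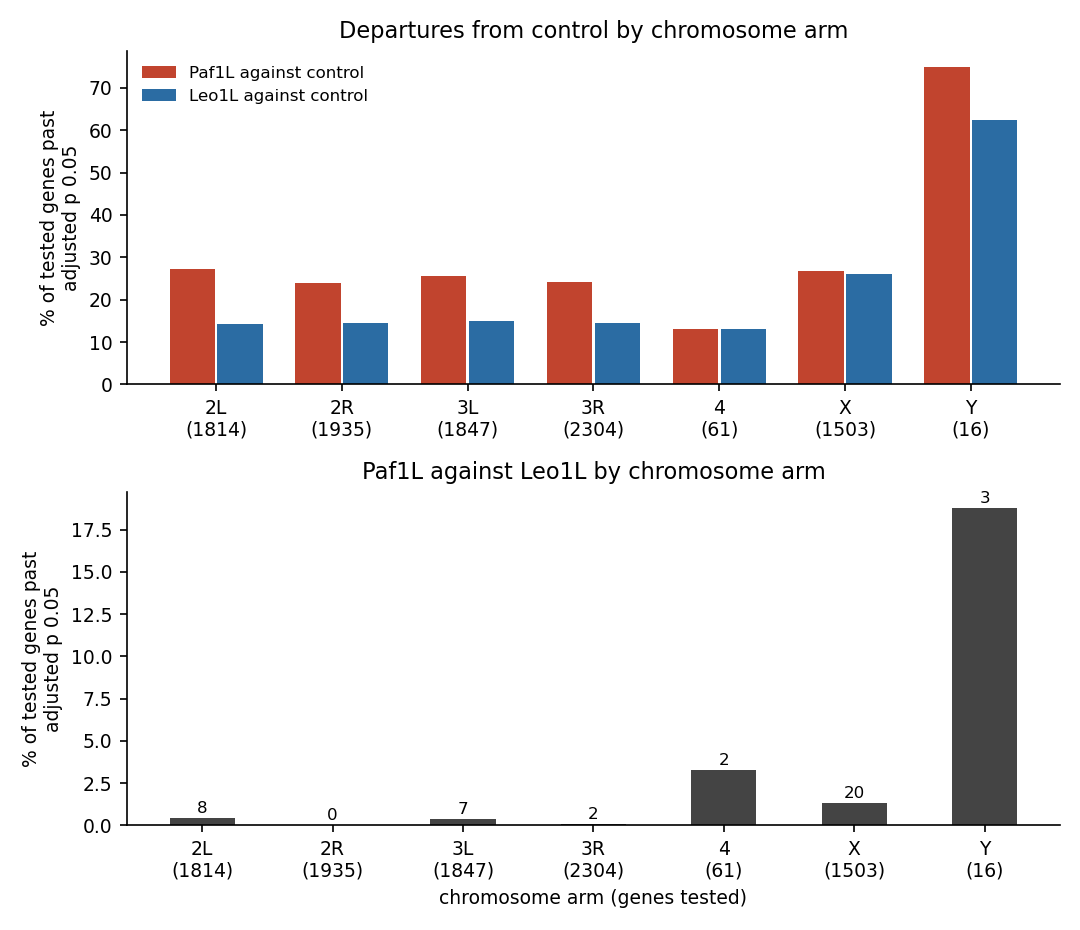
Bars give the percentage of tested genes on each chromosome arm with an adjusted p under 0.05, for each mutant against control (upper panel, Paf1L red and Leo1L blue) and for Paf1L against Leo1L (lower panel, with the number of genes above each bar). The numbers of tested genes stand under the arms. On X the mutants have nearly equal shares (26.7% and 26%), on the large autosomal arms Paf1L has the higher share, and Y rests on 16 genes.

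Among X genes that differ and follow each other along the chromosome, 8 pairs lay within 200 kb. Of the 20 X genes, 14 belonged to such a pair. How often as many genes drawn from all tested X genes would lie this close was not computed, so the counts are a description. Several members, among them nocte, f, eas and AnxB11, did not pass in every left-out fit. Psf3 and RabX2 were 31.6 kb apart and RabX2 and nocte 43.6 kb, f and B-H2 33.6 kb, and CG43736 and ogre 92 kb. In 5 of the 8 pairs the neighbours had opposite signs, for example 2.19 for Psf3 and -5.75 for RabX2, or -1.10 for CG43736 and 4.30 for ogre. In the other 3, CG34408 with Psf3, eas with AnxB11 and f with B-H2, they had the same sign. On 2L, 5 other genes lay within 2 Mb of CG12674, the mutated gene of Paf1L. They were net, rempA, CG43401, CG18132 and LeuRS, 5 of the 339 tested genes in that window (1.47%), against 2 of 1474 on the rest of the arm (0.136%). At an unadjusted p under 0.05 in limma stood 61 of the 339, where 13.5% of all tested genes did. The start of net lay at -1.9975 Mb, at the edge of the window. Of the 9 left-out fits, CG43401 passed in 9, LeuRS in 7, net in 3, CG18132 in 2 and rempA in 1. Paf1L alone departed from control in 3 of the 5, and in net and LeuRS it had gone further than Leo1L. Around CG10887, the mutated gene of Leo1L on 3R, 0 of 304 tested genes within 2 Mb differed in limma (31 at an unadjusted p under 0.05, where 13.5% of all tested genes were), against 2 of 1999 on the rest of the arm. The part of linked background in these differences was not tested.

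**Figure D4:**
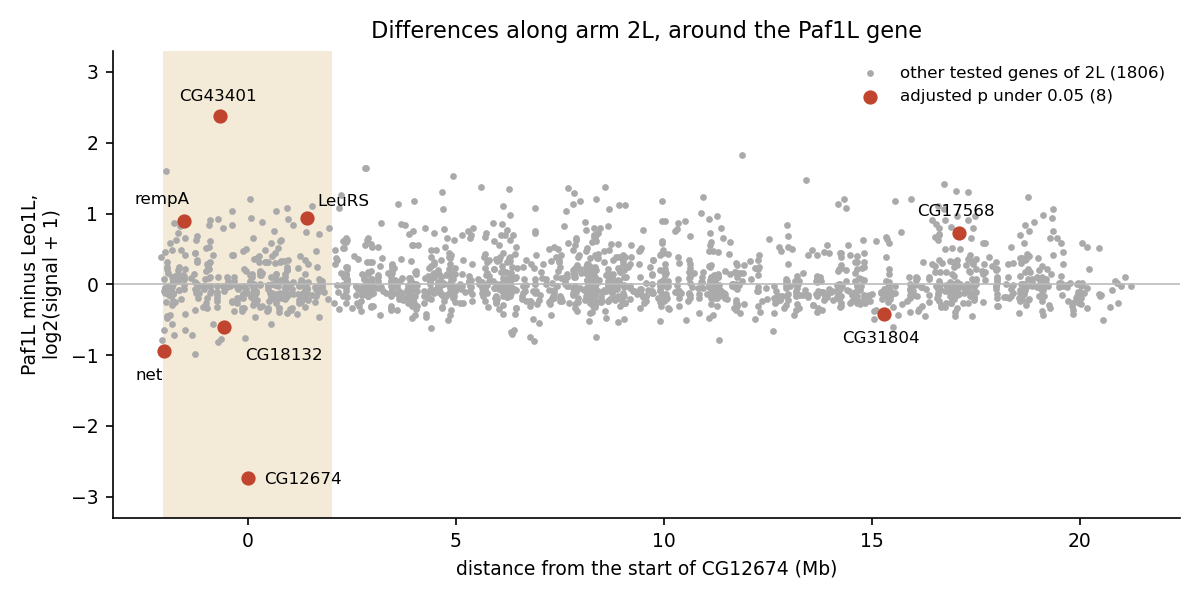
Each point is a tested gene of arm 2L, plotted by the distance of its start from the start of CG12674 in Mb and by its Paf1L minus Leo1L difference in log2(signal + 1). Genes with an adjusted p under 0.05 are red and named, and the shaded band marks 2 Mb to either side. Of the 8 red genes, 6 including CG12674 itself lie in the band.

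Beyond single genes, the genes raised or lowered in the mean of both mutants lay further from control in Paf1L by median. In the mean of both mutants, 434 genes (4.57%) were raised and 95 genes (1%) were lowered against control by at least 1 log2 unit. These lists come from the same columns and both mutants were set against the same controls, so their values are given as a description with no test. They also hold genes changed in 1 mutant alone, such as RabX2, AnxB11 and Zpr1 among the raised and ogre, B-H2, sordd2 and CG12674 among the lowered. Of the raised genes, 346 (79.7%) were higher in Paf1L than in Leo1L, with a median difference of 0.40. Of the lowered genes, 76 were lower and 18 (18.9%) higher in Paf1L, with a median difference of -0.23. Over all tested genes 48.6% were higher in Paf1L. The median change of the raised genes against the control mean was 1.65, 1.78 and 1.61 in Paf1L columns, against 1.41, 1.21 and 1.26 in Leo1L columns. For the lowered genes it was -1.45, -1.40 and -1.35 in Paf1L columns, against -1.25, -0.89 and -1.13 in Leo1L columns. The columns of the mutants did not overlap in either list. One by one, 14 of the 434 raised and 9 of the 95 lowered genes passed the test, where 42 of 9495 tested genes (0.442%) did. Genes listed through a large change in 1 mutant alone add to these 2 counts, so the counts are a description only.

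Lists chosen from whole testis, by the mean of bulk Paf1L and Leo1L mutants against the bulk control stocks, gave the same order. Over 94 genes raised there, the median difference in sorted cells was 0.26, with 67 of them (71.3%) higher in Paf1L. Over 83 genes lowered there it was -0.24, with 65 of them lower in Paf1L. Medians by column were 1.84, 1.90 and 2.02 in Paf1L, against 1.65, 1.59 and 1.67 in Leo1L for the raised genes, and -0.88, -0.69 and -0.73 in Paf1L, against -0.53, -0.33 and -0.45 in Leo1L for the lowered genes.

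**Figure D5:**
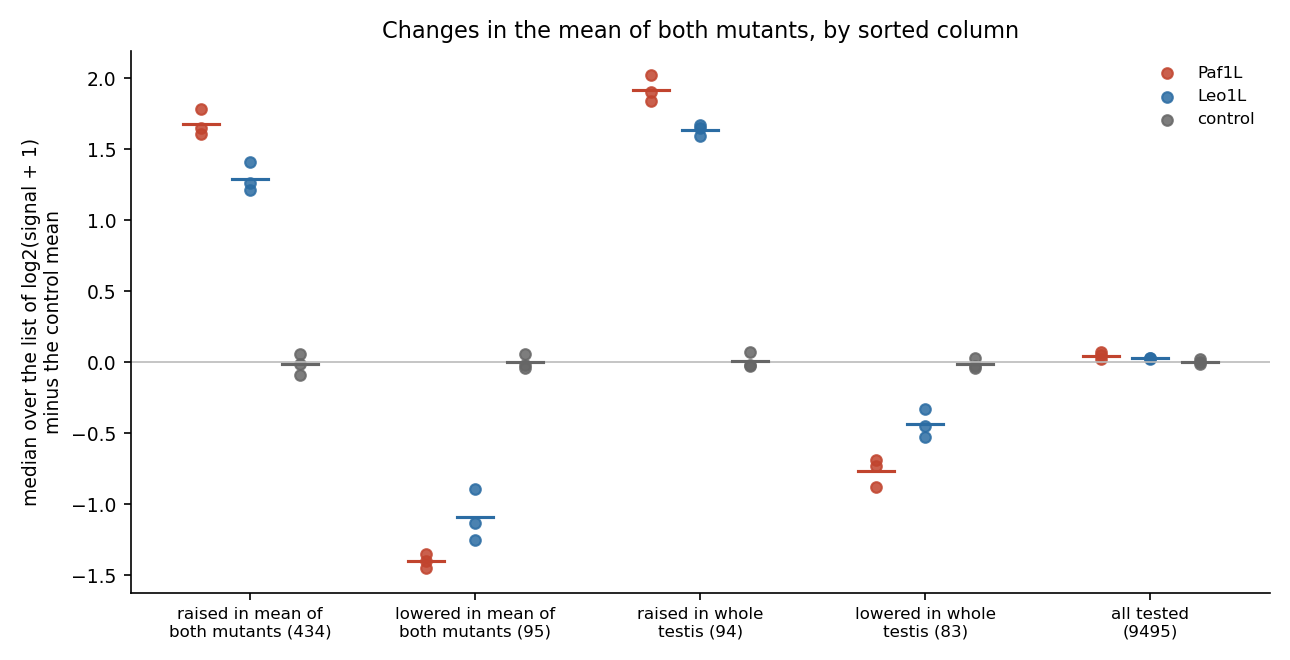
Points are sorted columns (Paf1L red, Leo1L blue, control grey) and short lines are group means. The vertical axis is the median, over each list, of log2(signal + 1) minus the control mean, and list sizes stand under the axis. Paf1L columns lie farther from 0 than Leo1L columns in all 4 lists and near 0, like the rest, over all 9495 tested genes.

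Of the 5 genes with the largest rise in the mean of both mutants, 0 passed between them in the reported fit. The gene unc79, which encodes an auxiliary subunit of the sodium leak channel, had 118, 107 and 147 in Paf1L columns, against 111, 79.5 and 95.2 in Leo1L columns and 3.5, 1.81 and 2.39 in control columns, a difference of 0.38 (95% interval -0.02 to 0.78). CG8850 had 67.5, 51.6 and 57.8 in Paf1L columns, against 63.9, 54 and 46.2 in Leo1L columns and 1.37, 0.518 and 0.743 in control columns, a difference of 0.11 (95% interval -0.32 to 0.54). The cadherin gene Cad99C had 80.8, 64.7 and 73.9 in Paf1L columns, against 48.4, 36.4 and 44.4 in Leo1L columns, a difference of 0.75 (95% interval 0.30 to 1.21, adjusted p = 0.195, and 0.0251 with array weights). Pp1-Y1, given above, differed by -0.31 (95% interval -0.78 to 0.15).

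The gene boil, the fifth of them, had its higher values in Leo1L. It had 266, 276 and 290 in Paf1L columns, against 505, 536 and 542 in Leo1L columns and 6.38, 24.9 and 30.8 in control columns. The mutants did not overlap, but the difference of -0.93 missed the threshold with all 9 columns (adjusted p = 0.314) and passed when the 6 mutant columns were fitted alone (adjusted p = 0.000163) and without control replicate 1. In whole testis boil was already high in controls, at 152 ± 11.7 in iso and 152 ± 20.5 in w1118. It averaged 189 ± 34 in Paf1L testes and 236 ± 17.9 and 234 ± 8.54 in the Leo1L crosses (SD, n = 3 each). Among lowered genes, the JAK-STAT ligand gene upd1 had 4.12, 5.05 and 3.9 in Paf1L columns, against 4.7, 8.62 and 6.55 in Leo1L columns and 26.7, 30.2 and 26.2 in control columns, a difference of -0.48 (95% interval -0.96 to -0.00). The Y dynein gene kl-5 had 18.1, 26.1 and 20.9 in Paf1L columns, against 21.5, 36.4 and 37.5 in Leo1L columns and 121, 110 and 84.6 in control columns, a difference of -0.50 (95% interval -0.95 to -0.06, adjusted p = 0.323, and 0.0325 with array weights). Iyd was listed at 0 in all 6 mutant columns and in 1 of the 3 control columns. In whole testis Iyd averaged 17.5 ± 8.36 in Paf1L and 13.8 ± 5.94 and 15.9 ± 15 in the Leo1L crosses. The iso stock averaged 11.3 ± 11.6 and the w1118 stock 20.4 ± 8.99 (SD, n = 3 each). CG12674 and sordd2, the other lowered genes by this measure, are described above and were lowered through 1 mutant each.

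No gene on the lists of the transcription machinery passed in limma, and 1, an elongation partner, had an unadjusted p under 0.05, where 13.5% of all tested genes did. The 5 canonical PAF1 complex genes had a median difference of 0.23, with the largest, 0.60 (95% interval -0.34 to 1.54), at Atu, the fly Leo1. The median was 0.19 over 12 elongation partners, -0.20 over 4 testis-specific TAFs of the general transcription machinery, and 0.06 over 7 members of tMAC, the complex that spermatocytes need to switch on meiotic and sperm genes. The intervals lay within 1 log2 unit of 0 for 4 of the 5 canonical PAF1 genes, 11 of the 12 partners and all TAF and tMAC genes listed. The largest differences in those lists were 0.30 for Spt5, -0.34 for nht and 0.30 for wuc (adjusted p = 0.569, 0.633 and 0.68). After quantile normalization the median was 0.07 over the partners and -0.10 over tMAC. With columns rescaled to one total it was -0.13 over the TAFs and 0.12 over tMAC, and without Paf1L replicate 2 it was 0.13 over tMAC.

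Among lists of sperm genes, 6 autosomal axonemal dynein heavy chains had a median difference of -0.10 with 0 passing at an adjusted or unadjusted p under 0.05 in limma, the largest being 0.29 at CG3339. The 14 stored sperm tail and chromatin transcripts were all lower in Paf1L by estimate in the reported fit, with a median of -0.19, but 3 were higher after quantile normalization and 3 with columns rescaled to one total (medians -0.09 and -0.12). At an unadjusted p under 0.05 stood 8 of them (57.1%), where 13.5% of all tested genes did, and Mst77F was the 1 that passed, while Tpl94D had the largest estimate at -0.58 (adjusted p = 0.373). The 26 respiratory chain genes had a median of -0.16 with 0 passing (7, or 26.9%, at an unadjusted p under 0.05), and ND-MNLL was largest at -0.27. Of 34 tested chemosensory receptors, Ir68b passed and the median was 0.04. Of 14 genes on the voltage-gated channel list (median 0.27) 0 passed at an adjusted or unadjusted p under 0.05, Ih having the largest estimate at 0.78 (adjusted p = 0.433). Against control 2 of the 14 (14.3%) were raised in each mutant, where 13% of all tested genes were raised in Paf1L and 9.53% in Leo1L. They were the channel gene para and unc79, which encodes an auxiliary subunit. After quantile normalization the medians were -0.02 for the dyneins, -0.10 for the respiratory chain and for the receptors, and 0.09 for the channels. With columns rescaled to one total they were -0.03 for the dyneins, -0.09 for the respiratory chain and 0.09 for the receptors, and without Paf1L replicate 2 they were -0.03 for the dyneins and 0.18 for the channels.

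Estimates for growth and stress genes were mostly above 0, with 0 genes passing in limma. At an unadjusted p under 0.05 stood 10 ribosomal protein genes (11.4%), 5 heat shock genes (50%), 1 histone gene (20%) and 0 piRNA pathway genes, where 13.5% of all tested genes did. The 88 cytosolic ribosomal protein genes had a median difference of 0.45, with 79 of them higher in Paf1L by estimate and RpS6 largest at 0.98 (95% interval 0.09 to 1.87, adjusted p = 0.335). Their summed signal was 5730, 4910 and 3630 in Paf1L columns, against 4810, 3130 and 3780 in Leo1L columns and 3660, 3550 and 4250 in control columns, so the groups overlapped. The 5 tested replication histone genes had a median of 0.75, with His4:CG33907 largest at 1.07 (95% interval -0.01 to 2.15). The 10 heat shock genes had a median of 0.34, with Hsp70Ab at 1.73 (95% interval 0.40 to 3.06, adjusted p = 0.289), and the 14 piRNA pathway genes a median of 0.07, with qin at 0.62. The piRNA median was 0.01 after quantile normalization, 0.14 with columns rescaled to one total and 0.12 without Paf1L replicate 2.

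Markers of cell types showed the following. The summed signal of 10 spermatocyte markers was 2200 to 2330 in Paf1L columns, 2420 to 2670 in Leo1L columns and 2780 to 2990 in control columns, with a median difference of -0.01 and kmg largest at 0.26. That of 13 post-meiotic spermatid markers was 3280 to 3830 in Paf1L columns, 3880 to 4130 in Leo1L columns and 3550 to 4260 in control columns, with a median difference of -0.15 and d-cup largest at -0.52. The 8 spermatogonial markers summed to 156 to 214 in Paf1L columns, 155 to 174 in Leo1L columns and 225 to 246 in control columns. Of these, 7 were tested, with a median difference of 0.45 and vas at 0.53 (adjusted p = 0.635). Hub and cyst cell markers summed to 138 to 165 in Paf1L columns, 120 to 138 in Leo1L columns and 152 to 166 in control columns, with a median difference of 0.15 and CadN largest at 1.17 (95% interval 0.45 to 1.88, adjusted p = 0.202).

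Muscle sheath markers summed to 21.6 to 30.1 in Paf1L columns, 21.7 to 25.5 in Leo1L columns and 22.6 to 38.1 in control columns, with a median difference of 0.01 and Mhc largest at 0.09. Accessory gland markers summed to 10.5 to 12 in Paf1L columns, 11.5 to 15.5 in Leo1L columns and 23.2 to 75.2 in control columns, with a median difference of -0.20, Acp36DE at -0.45 and Acp24A4 listed at 0 in all 9. No marker gene passed between the mutants in limma. At an unadjusted p under 0.05 stood 4 post-meiotic, 3 hub or cyst and 1 spermatocyte marker, and 0 of the other 3 lists, which is 30.8%, 33.3% and 10% of these lists, against 13.5% of all tested genes. After quantile normalization the median differences were -0.07 for spermatocyte, 0.25 for spermatogonial, 0.10 for hub and cyst, -0.14 for muscle and -0.35 for accessory gland markers. With columns rescaled to one total they were 0.06 for spermatocyte, -0.08 for post-meiotic and 0.06 for muscle markers, and without Paf1L replicate 2 they were 0.03, -0.10 and -0.06 for the same lists. The part of cell composition in the differences described above was not tested.

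In whole testis, 25 of 10925 genes (0.229%) differed between Paf1L and the mean of the 2 Leo1L crosses at an adjusted p under 0.05. Of the 42 genes from sorted cells, 41 were tested there and 4 passed. These were sordd2, CG12674 (-3.18, adjusted p = 6.1e-11), CG32333 and CG15882, the last with 13.4 ± 1.74 in Paf1L, against 5.9 ± 0.791 and 5.91 ± 0.319 in the Leo1L crosses (SD, n = 3 each), a difference of 1.06 (adjusted p = 0.000463). All 4 had the same sign in both tables. At the other 37 genes the bulk test did not pass, which leaves small bulk differences possible.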

How the data were processed

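RNA-seq signal per gene came from 2 tables that the authors deposited, 1 for sorted spermatocytes and 1 for whole testis, with 13659 genes each. The deposited signal had been normalized by the authors under the name GeTMM, per the file headers. STAR, Salmon, edgeR 3.34.0, DESeq2 and the build dm6 are named, without roles, per the submitters' processing notes. Strand setting and the joining of the 2 libraries per sorted column are not given in the sources used here. Columns were assigned by the names that the labels give.

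Genes with a mean signal of at least 1 over a table were fitted as log2(signal + 1) with limma 3.58.1 in R 4.3.3 (lmFit, contrasts, eBayes with trend) over all 9 sorted or all 21 bulk columns, with Benjamini-Hochberg adjustment within each contrast. The fit was tested on simulated data. A gene was placed by its adjusted p under 0.05 against control in each mutant. By the naming rule the text names every gene that differed by 1 log2 unit or more, the 6 smaller ones with the lowest p each way, the mutated genes, the 5 largest changes each way in the mean of both mutants and, per list, the members that differed and the one with the largest difference. The other smaller ones, eas, net, CG18132, CG12446 and CG31804, were named after their values were seen. The members and the 21 gene lists were chosen with earlier results of these data known. The 13 genes of the mitochondrial genome list were not matched and give no value. Positions came from the Ensembl BDGP6 annotation (13643 genes, 99.9%, matched by symbol or synonym), which is the assembly of dm6. Sequences were not used here.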

Additional observations from a re-analysis of the deposited data

Results flagged for a closer look

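At 2 genes every column ordered the mutants one way in sorted cells and every library ordered them the other way in whole testis. The difference between the tables was not tested. For nocte the sorted difference was 1.31, with 11.5 to 17.8 in Paf1L against 4.02 to 8.17 in Leo1L, and the bulk difference was -0.11, with 54.7 to 56 in Paf1L against 56.5 to 63.2 in Leo1L. The gene nocte shares exonic bases with CG2889 and Neb-cGP on the opposite strand, and their reads cannot be told apart here. For CG7768 the sorted difference was -0.71, with 151 to 165 in Paf1L against 230 to 300 in Leo1L, and the bulk difference was 0.15, with 292 to 306 in Paf1L against 257 to 285 in Leo1L.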

How the results depend on the processing

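Counts of genes that differ kept within 1.5 times of the reported 42 (any fold) and 25 (at least 1 log2 unit) under other pseudocounts, filters, scalings, the 6 mutant columns alone, the limma fit without trend and the replicate block, and moved under array weights, which gave 435 and 95 and held all 42 genes. Leaving out 1 column gave 20 to 41 genes at any fold and 17 to 28 at 1 log2 unit or more. None of the 42 genes changed sign in any of the 20 alternatives, and 15 passed in every one that tested them. The genes behind these counts changed more than the counts did. Without trend 29 genes passed, 20 higher and 9 lower in Paf1L, and 23 of them were among the 42. With the 6 mutant columns alone 32 passed, 28 of them among the 42. After quantile normalization 46 passed, 38 of them among the 42. With the replicate number as a block 58 genes passed, 26 of them by 1 log2 unit, 40 being among the 42. Same-numbered columns correlated in their deviations from -0.11 to 0.28, so the numbers were not taken to pair the samples. With a 1 log2 unit limit against control, genes further changed in Paf1L numbered 7, in Leo1L 1, in opposite directions 0 and in neither 6, in place of 13, 3, 1 and 0. The median over the raised genes was 0.24 at a pseudocount of 5, 0.25 after quantile normalization and 0.26 for the list from whole testis, in place of 0.40, and ranged from 0.35 to 0.44 without 1 column. Over the lowered genes it was -0.35 after quantile normalization, in place of -0.23, and ranged from -0.33 to -0.17 without 1 column. The inverted Leo1L cross alone gave 14 bulk genes, in place of 25. The cause of these moves was not tested. Approximate depth, 7.96 to 20.8 M reads per column, limits what can be seen at signals near 0.145 to 0.383.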
